A study of Arabidopsis thaliana with 9 samples.

Results

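The genes described here are 10 Arabidopsis thaliana genes of the general phenylpropanoid pathway and of lignin monomer synthesis: PAL1, PAL2, C4H, 4CL1, 4CL2, HCT, C3H, CCOAOMT1, CCR1 and CAD5. They were chosen by name, from a fixed list of locus identifiers and not by measured values. Earlier results of these data were known when they were chosen. They are 10 of the 33977 genes in the count files. All 10 passed the filter on low counts, which left 19870 genes to be tested. Their transcripts were counted by RNA sequencing in 9 libraries of aboveground tissue collected at bolting, the stage at which the flowering stem begins to grow. All plants were of the Col-0 ecotype and grew on soil with 12 h of light a day. The first group, dwarf, holds 3 libraries of plants labelled PPD3-RNAi T+ with a dwarf phenotype, and the second, large, holds 3 libraries of plants with the same genotype label and a large phenotype. The third group, WT, holds 3 wild-type libraries. PPD3 is a nuclear gene for a chloroplast protein of the PsbP domain family. The labels give the phenotype of the RNA interference plants but not the promoter of the transgene, the line, or the number of plants behind a library, and no group is an empty-vector control. The labels call the 3 libraries of each group biological replicates without naming separate pools or plants, so the p-values measure only the spread between these samples.

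Phenylpropanoid metabolism starts from the amino acid phenylalanine, which phenylalanine ammonia-lyase (PAL) deaminates to cinnamic acid. Cinnamate 4-hydroxylase (C4H) and 4-coumarate:CoA ligase (4CL) then make p-coumaroyl-CoA, from which flavonoids, sinapate esters and the lignin monomers (monolignols) all derive. On the monolignol route, HCT and C3H build the second ring hydroxyl, CCoAOMT methylates it, and CCR and CAD reduce the CoA ester to the alcohol that laccases and peroxidases polymerize in the walls of xylem and fibres. In a bolting shoot, lignin is laid down in the vascular tissue of leaves and stem and in the fibres between the stem bundles, so most of the shoot's cells make little of it.

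Genes of this pathway are known to share AC elements, short promoter motifs bound by MYB transcription factors, and the stretches before their starts were therefore read. The motifs searched on both strands were AC-I (ACCTACC), AC-II (ACCAACC) and AC-III (ACCTAAC), none of which can coincide with another in the same 7 letters, although neighbouring matches could overlap. Within the 250 bases before the annotated start, 6 of the 10 genes held at least 1 match, as did 6.12% of the promoters of 27443 protein-coding genes. AC-II was found in 2.69% of those promoters, AC-I in 1.16% and AC-III in 2.46%. The promoters of 4CL2, C3H, CCOAOMT1 and CAD5 are shown because C3H and CCOAOMT1 differed most clearly between groups, CAD5 varied most within them, and 4CL2 alone among the 10 held 2 matches. They are written 5′ to 3′ on the strand of the gene, in the TAIR10.1 assembly of RefSeq, with the AC element in capitals. The stretch before C3H is chr2:17060653-17060902 (minus strand), that before CCOAOMT1 is chr4:16310159-16310408 (plus strand), that before CAD5 is chr4:16388941-16389190 (minus strand) and that before 4CL2 is chr3:7457405-7457654 (minus strand).
C3H: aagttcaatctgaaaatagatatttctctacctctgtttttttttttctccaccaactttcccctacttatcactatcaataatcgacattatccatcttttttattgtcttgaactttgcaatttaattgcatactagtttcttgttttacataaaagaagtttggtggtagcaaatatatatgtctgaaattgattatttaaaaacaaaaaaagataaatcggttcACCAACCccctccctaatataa
CCOAOMT1: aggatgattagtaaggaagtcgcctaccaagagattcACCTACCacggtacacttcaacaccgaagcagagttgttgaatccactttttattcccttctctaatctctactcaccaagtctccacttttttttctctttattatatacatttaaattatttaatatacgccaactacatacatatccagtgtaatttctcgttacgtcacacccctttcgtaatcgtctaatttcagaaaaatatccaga
CAD5: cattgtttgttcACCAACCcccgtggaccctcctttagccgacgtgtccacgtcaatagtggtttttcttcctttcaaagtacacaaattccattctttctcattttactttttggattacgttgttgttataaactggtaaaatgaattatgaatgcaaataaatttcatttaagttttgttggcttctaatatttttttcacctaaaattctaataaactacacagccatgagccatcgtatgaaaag
4CL2: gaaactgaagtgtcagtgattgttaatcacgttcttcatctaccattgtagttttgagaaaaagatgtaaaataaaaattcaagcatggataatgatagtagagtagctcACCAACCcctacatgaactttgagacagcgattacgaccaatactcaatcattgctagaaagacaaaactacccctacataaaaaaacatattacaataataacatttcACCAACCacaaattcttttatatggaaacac
The AC-II match of C3H began 22 bases before the annotated start, and that of CAD5 began 238 bases before it. CCOAOMT1 carried the only AC-I match among the 10, beginning 213 bases before the start, and the AC-II matches of 4CL2 began 140 and 31 bases before it. HCT and CCR1 each held 1 AC-II match, beginning 90 and 14 bases before the start. PAL1, PAL2, C4H and 4CL1 had none of these letters within the 250 bases, which says nothing of sites farther away or of other spellings.

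The libraries were of nearly equal depth, with 34660392 to 35217754 reads counted to genes. Levels are given as CPM, counts brought to a common library size after TMM scaling. The libraries of a group were less alike among the dwarf plants than among the others: the SD of the log2 differences between replicate pairs over all genes tested was 0.528 to 0.788 for dwarf, 0.360 to 0.530 for large and 0.320 to 0.430 for WT. PPD3, the gene named in the genotype, had 87.6, 128 and 96.5 CPM in the dwarf libraries, 86.7, 77.9 and 108 CPM in the large libraries, and 115, 100.3 and 91.1 CPM in the WT libraries. Its level did not separate the libraries by label, and the groups are named here by their labels alone, with log2 fold changes of 0.03 for dwarf against WT (adjusted p = 0.934) and -0.17 for large against WT (adjusted p = 0.708). The dwarf value is -0.30 when the median of the 50 tested genes on either side, raised in dwarf 1 and dwarf 2, is taken as an offset. The 5 leaf markers summed to 22046 to 49231 CPM in dwarf, 28197 to 38502 CPM in large and 36862 to 42221 CPM in WT. The 8 floral organ markers summed to at most 1.93 CPM in every library, and AP1, AP3, AG and the others of that list were thus near 0. The 9 root markers summed to 31.4 to 45.2 CPM in dwarf, 38.9 to 47.0 CPM in large and 1.35 to 21.7 CPM in WT. Of these sums PYK10 made up 30.5 to 43.8 CPM in dwarf, 38.2 to 46.2 CPM in large and 0.965 to 21.3 CPM in WT. It encodes a beta-glucosidase of endoplasmic reticulum bodies. CASP1 had 7, 4 and 6 counts in dwarf, 7, 6 and 8 in large, and 2, 0 and 2 in WT. MYB36 had 4, 4 and 6 counts in dwarf, 0, 1 and 1 in large, and 0 in each WT library. NRT2.1 had 34, 23 and 56 counts in dwarf, 18, 16 and 4 in large, and 16, 9 and 6 in WT. PIN2 and COBL9 had at most 5 counts in a library, EXPA7 and LRX1 at most 1. The root hair gene RHD6 had 0 counts in all 9 libraries. What these counts mean for the tissue in each library was not tested. The 15 secondary wall and xylem markers, of the tissue in which monolignols are most used, summed to 153 to 220 CPM in dwarf, 198 to 217 CPM in large and 193 to 206 CPM in WT. In such bulk samples fewer cells of a type and less RNA per cell cannot be told apart.

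None of the 10 genes passed the test in any of the 3 comparisons. With edgeR's quasi-likelihood test, 0 of 10 were called in dwarf against WT, where 8.76% of all genes tested were called (6.54% higher and 2.22% lower in dwarf), 0 of 10 in large against WT, where 4.22% were (3.89% higher, 0.327% lower), and 0 of 10 in dwarf against large, where 0.649% were (0.272% higher, 0.377% lower). At an unadjusted p under 0.05 there were 0, 1 (CCOAOMT1) and 2 (4CL1 and C3H) in those comparisons. DESeq2 called 0, 1 (CCOAOMT1) and 1 (C3H), and limma voom with quality weights called 0, 1 (CCOAOMT1) and 2 (4CL1 and C3H). Over all 19870 genes tested DESeq2 called 3184, 1833 and 1706 in those comparisons, and limma voom 4626, 4192 and 3781. The share of all genes at an unadjusted p under 0.05 is not given here. The adjusted p-values of the 10 ran between 0.229 and 0.939 in dwarf against WT, between 0.151 and 0.987 in large against WT, and between 0.0844 and 0.992 in dwarf against large. Each 95% interval holds for 1 gene on its own and with TMM scaling, so together they are no joint bound on a missed change. Outside CAD5 they reached at most 1.69-fold in dwarf against WT, 1.54-fold in large against WT and 1.73-fold in dwarf against large, in either direction. For CAD5 they reached 1.99-fold, 2.20-fold and 2.05-fold.

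**Figure D1:**
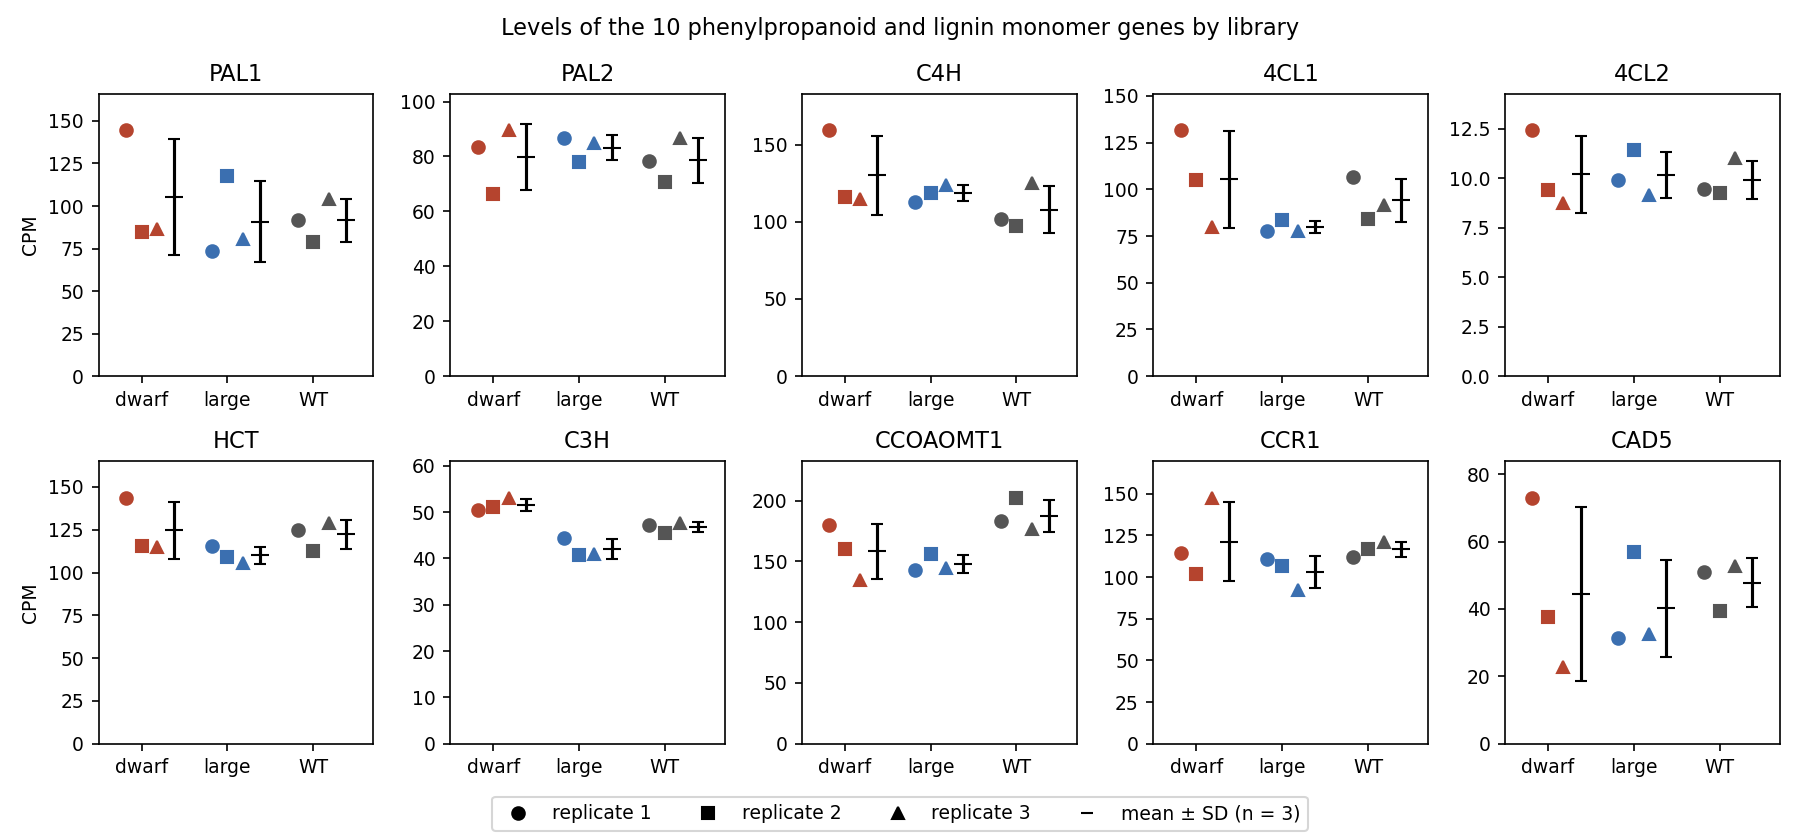
Level of each of the 10 genes in every library, in CPM on a separate axis per gene, with dwarf, large and WT from left to right; points are libraries and bars the group mean with its SD (n = 3). CAD5 and PAL1 spread widely within the dwarf and large groups, whereas the 3 groups of C3H do not overlap.

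PAL1 and PAL2 encode the entry enzyme. PAL1 (AT2G37040, on chromosome 2) had 144, 84.7 and 86.4 CPM in the dwarf libraries, 73.5, 118 and 80.6 CPM in the large libraries, and 91.8, 78.9 and 104 CPM in the WT libraries. A single library stood high in each of the dwarf and large groups, dwarf 1 and large 2, and all 3 groups overlapped. The log2 fold change was 0.20 ± 0.25 (SE) for dwarf against WT (adjusted p = 0.652), and without dwarf 1 it was -0.10. PAL2 (AT3G53260, on chromosome 3), the second of the PAL isoforms and like PAL1 active in vascular tissue, had 83.4, 66.2 and 89.5 CPM in dwarf, 86.6, 77.9 and 85.1 CPM in large, and 78.3, 70.7 and 86.8 CPM in WT. Its groups overlapped too, and it did not share the high values of dwarf 1 and large 2. The ratio of PAL1 to PAL2 CPM accordingly ranged more widely in the dwarf libraries (1.73, 1.28 and 0.966) and the large libraries (0.850, 1.51 and 0.947) than in the WT libraries (1.17, 1.12 and 1.20). About 1.1% of the 50-base words of either gene's exons occur elsewhere in the genome assembly, so few reads could be shared between them.

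C4H (AT2G30490), the cytochrome P450 of the second step, had 159, 116 and 115 CPM in dwarf, 113, 119 and 124 CPM in large, and 102, 97.1 and 125 CPM in WT. The dwarf and large means were both above the WT mean, but WT 3 lay above 2 of the dwarf libraries and every large one. The log2 fold changes were 0.27 ± 0.15 (SE) for dwarf against WT (adjusted p = 0.290) and 0.14 ± 0.15 for large against WT (adjusted p = 0.725). 4CL1 (AT1G51680), the main 4-coumarate:CoA ligase of lignifying tissue, had 132, 105 and 79.7 CPM in dwarf, 77.9, 83.8 and 77.8 CPM in large, and 107, 83.9 and 91.5 CPM in WT. All 3 large libraries lay below the lowest WT library, the closest of them only just, while the dwarf libraries spanned the WT range and beyond. In dwarf against large the log2 fold change was 0.40 ± 0.17 (SE, 95% interval 0.02 to 0.79, adjusted p = 0.234), the greatest of the 10 genes in that comparison. It passed the adjusted threshold with limma voom (adjusted p = 0.0432) and without dwarf 3 (adjusted p = 0.0219), and not in the other 16 alternatives.

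4CL2 (AT3G21240) encodes another ligase of the same class and was the least abundant of the 10 genes. It had 12.4, 9.42 and 8.73 CPM in dwarf, 9.90, 11.4 and 9.15 CPM in large, and 9.44, 9.24 and 11.01 CPM in WT. Dwarf 1, large 2 and WT 3 were its high libraries, the same 3 as for PAL1, and the groups overlapped. The ratio of 4CL1 to 4CL2 CPM was 10.6, 11.2 and 9.13 in dwarf, 7.87, 7.33 and 8.50 in large, and 11.3, 9.08 and 8.31 in WT. Every large library was below every dwarf library in this ratio, while WT 3 fell inside the large range.

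HCT moves the coumaroyl group onto shikimate and back, and C3H hydroxylates the shikimate ester in between. HCT (AT5G48930) had 144, 115 and 115 CPM in dwarf, 116, 109 and 105 CPM in large, and 125, 113 and 129 CPM in WT. Dwarf 1 was again the highest library, and the groups overlapped, with log2 fold changes of 0.03 ± 0.11 (SE) for dwarf against WT (adjusted p = 0.901) and -0.15 ± 0.11 for large against WT (adjusted p = 0.544). C3H (AT2G40890), whose RefSeq symbol is CYP98A3, had 50.4, 51.2 and 53.1 CPM in dwarf, 44.5, 40.7 and 40.9 CPM in large, and 47.1, 45.5 and 47.7 CPM in WT. Its coefficient of variation was 2.64% in dwarf and 2.42% in WT, the lowest of the 10 genes in both groups, and 5.10% in large, where C4H, HCT, 4CL1 and CCOAOMT1 varied less. It was also the only one of them whose 3 groups did not overlap at all: all dwarf libraries lay above all WT libraries, and all large libraries below them.

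The C3H differences were small. The log2 fold change was 0.29 ± 0.07 (SE, 95% interval 0.13 to 0.46) for dwarf against large, a 1.23-fold difference between means of 51.6 ± 1.36 CPM in dwarf and 42.0 ± 2.15 CPM in large (SD, n = 3 each). edgeR's adjusted p was 0.0844, so C3H was not called. DESeq2 (adjusted p = 0.00313), limma voom (adjusted p = 0.0362) and the fit without dwarf 3 (adjusted p = 0.0343) did call it, and over all 18 alternatives the adjusted p ran between 0.00313 and 0.256 with the log2 fold change between 0.23 and 0.33. Against WT the log2 fold change was 0.14 ± 0.07 for dwarf (adjusted p = 0.248) and -0.15 ± 0.07 for large (adjusted p = 0.293), and no alternative called either. Neighbouring genes overlap 23.0% of the C3H gene from start to end, introns included. One is a long non-coding RNA with 2 to 12 counts per library. The other, CYSA, a cystatin gene with 1628 to 3040 counts, shares 70 bases with it. The sources used here do not say how reads in those stretches were assigned.

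CCOAOMT1 (AT4G34050), the caffeoyl-CoA methyltransferase, was the most abundant of the 10 genes per length of exon, and it was lower in both RNA interference groups than in WT on average. It had 180 CPM in dwarf 1, 160 CPM in dwarf 2 and 134 CPM in dwarf 3. The large libraries had 143, 156 and 144 CPM, and the WT libraries had 183, 202 and 176 CPM. All 3 large libraries lay below the lowest WT library, and of the dwarf libraries only dwarf 1 reached into the WT range. The log2 fold change for large against WT was -0.34 ± 0.12 (SE, 95% interval -0.61 to -0.08), between means of 148 ± 7.24 CPM in large and 187 ± 13.3 CPM in WT (SD, n = 3 each). edgeR's adjusted p was 0.151 with all 9 libraries and 0.0495 without dwarf 3, a library that is in neither group compared but takes part in the shared estimate of spread. It was called by DESeq2 (adjusted p = 0.0413), by limma voom (adjusted p = 0.00609) and when only the large and WT libraries were fitted (adjusted p = 0.0286), and over all 18 alternatives the adjusted p reached 0.447. For dwarf against WT the log2 fold change was -0.24 ± 0.12 (adjusted p = 0.229), with no call in any alternative. The comparisons with WT share the WT libraries, so the 2 values are not independent.

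The last steps are the reductases. CCR1 (AT1G15950), the cinnamoyl-CoA reductase of developmental lignification, had 115, 102 and 148 CPM in dwarf, 111, 107 and 92.0 CPM in large, and 112, 117 and 121 CPM in WT. Every large library was below every WT library, though the highest large value (111 CPM) and the lowest WT value (112 CPM) nearly met, whereas the dwarf libraries lay on both sides of WT. Dwarf 3, the highest library for CCR1, was also the one in which the 50 tested genes on either side of it on chromosome 1 stood at a median of 0.54 log2 above WT; the same median lay between -0.01 and 0.06 in the other libraries. With that median as an offset the log2 fold change for dwarf against WT was -0.16 (adjusted p = 0.340), and without it 0.06 ± 0.14 (SE, adjusted p = 0.833). Annotated genes overlap 81.3% of the CCR1 gene from start to end, introns included. Most of that is a long non-coding RNA with 0 to 2 counts per library. The metal transporter gene NRAMP6, with 235 to 409 counts, overlaps 516 bases of CCR1, which had 3147 to 4783 counts.

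CAD5 (AT4G34230) encodes one of the main cinnamyl alcohol dehydrogenases of the stem. It had 73.0, 37.6 and 22.7 CPM in dwarf, 31.3, 56.8 and 32.5 CPM in large, and 50.9, 39.4 and 52.9 CPM in WT. The dwarf libraries thus spanned the full range of the series, with dwarf 1 the highest and dwarf 3 the lowest of all 9. The coefficient of variation was 58.0% in dwarf, 35.7% in large and 15.3% in WT, the widest of the 10 genes in each group. The log2 fold change for dwarf against WT was -0.10 ± 0.39 (SE, adjusted p = 0.899); it was -0.66 without dwarf 1 and 0.21 without dwarf 3, so its direction rested on single libraries. The large against WT value was -0.25 ± 0.39 (adjusted p = 0.827).

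**Figure D2:**
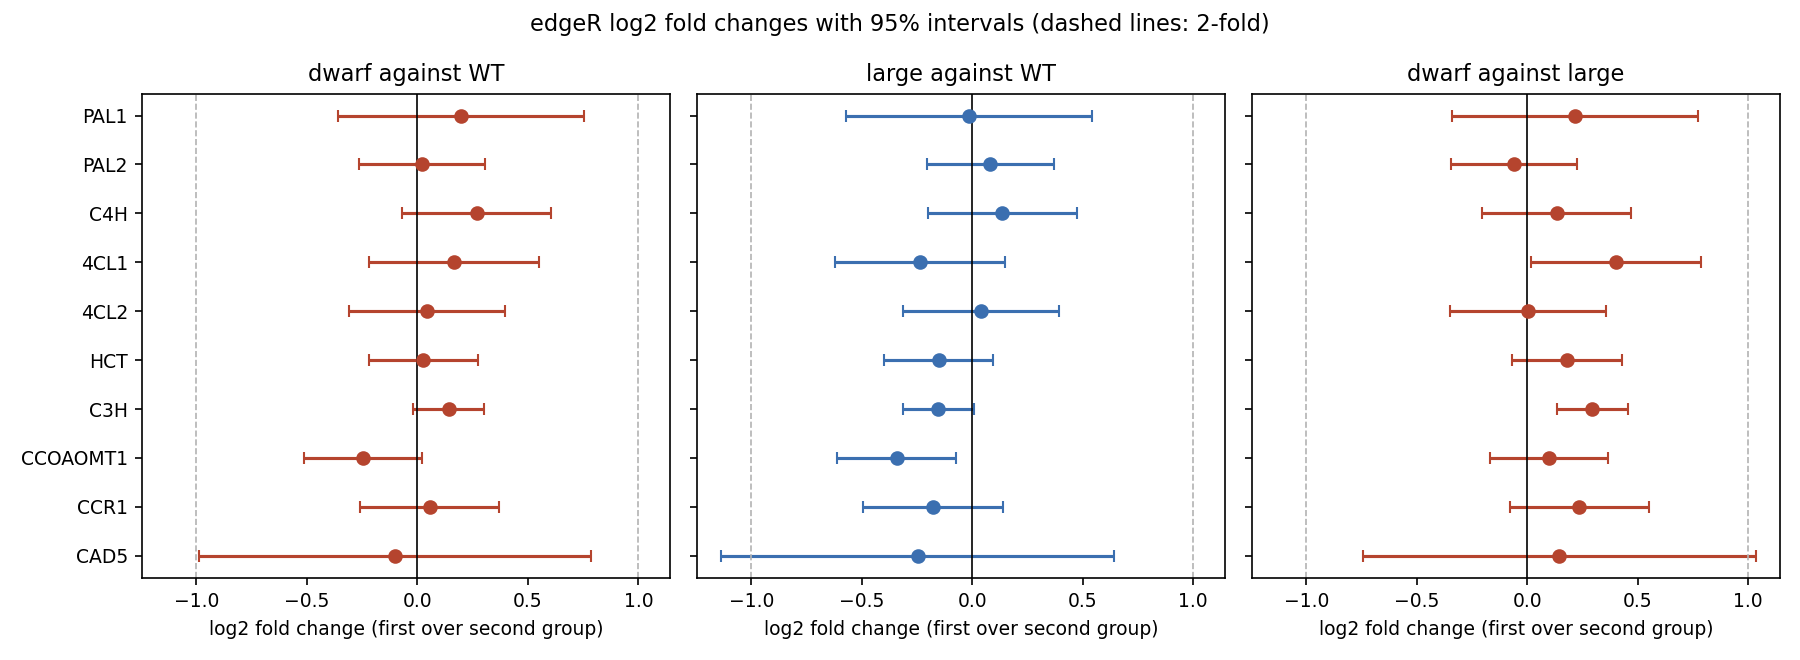
Log2 fold change of each gene in the 3 comparisons (dwarf against WT, large against WT, dwarf against large) with its 95% interval from the edgeR fit. The interval of C3H in dwarf against large (0.13 to 0.46), that of 4CL1 in the same comparison (0.02 to 0.79) and that of CCOAOMT1 in large against WT (-0.61 to -0.08) leave out 0, and none passed adjustment over 19870 genes.

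Seen across the 10 genes, the directions leaned without a call. In dwarf against WT the log2 fold change was positive for 8 and negative for 2, with a median of 0.05, as over all genes tested (0.05), but with upper-quartile factors in place of TMM 6 were negative and the median was -0.026. Of all genes tested 43.6% were negative there. In large against WT 7 were negative and 3 positive, with a median of -0.15 against 0.01 over all genes tested, of which 48.2% were negative. Dwarf against large gave 9 positive values and 1 negative, for PAL2, with a median of 0.16 against 0.01 over all genes tested, of which 48.1% were negative. The groups did not overlap for 1 gene in dwarf against WT (C3H, above), against 28.9% of all genes tested (16.8% above, 12.2% below). In large against WT they did not overlap for 4 genes (4CL1, C3H, CCOAOMT1 and CCR1, all below), against 33.6% of all genes (19.7% above, 13.9% below). Between dwarf and large they did not overlap for 1 gene (C3H, above), against 20.0% of all genes (8.79% above, 11.2% below). Counted in both directions, the share among the 10 genes was thus near the background or under it in each comparison. The 4 of 10 in large against WT exceed only the 13.9% of all genes that lay below. For 4CL1 (83.8 and 83.9 CPM) and CCR1 (111 and 112 CPM) the highest large and lowest WT libraries nearly met. The genes with an AC element in the stretch read (4CL2, HCT, C3H, CCOAOMT1, CCR1 and CAD5) had log2 fold changes between -0.24 and 0.14 in dwarf against WT, and those without one (PAL1, PAL2, C4H and 4CL1) between 0.02 and 0.27. For large against WT the values lay between -0.34 and 0.04 with an element and between -0.24 and 0.14 without, so the ranges overlapped in both.

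Dwarf 1 stood apart from the other dwarf libraries. In it 7 of the 10 genes were above all 3 WT libraries and none was below all 3, the median ratio to the WT mean was 1.21, and the 10 genes together made up 1092.5 CPM, against 791 to 946 CPM in the other 8 libraries. In dwarf 2 and dwarf 3, 4 genes each were below all WT libraries, and 1 and 3 were above. Without dwarf 1 the median log2 fold change of the 10 genes was -0.06 in dwarf against WT, with 7 negative, and -0.02 in dwarf against large, with 6 negative. The large libraries were more even: 6, 5 and 7 genes lay below all WT libraries in large 1, large 2 and large 3, and 0, 3 and 0 lay above. The share of all genes tested that lay outside the WT range in each library is not given here. These counts thus have no background beside them and do not tell the 10 genes from other genes of the same library. Dwarf 1 and dwarf 2 both had low sums of the xylem markers (161 and 153 CPM) and leaf markers (22046 and 29953 CPM), against WT ranges of 193 to 206 CPM and 36862 to 42221 CPM; the part of these sums in the values of the 10 genes was not tested.

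**Figure D3:**
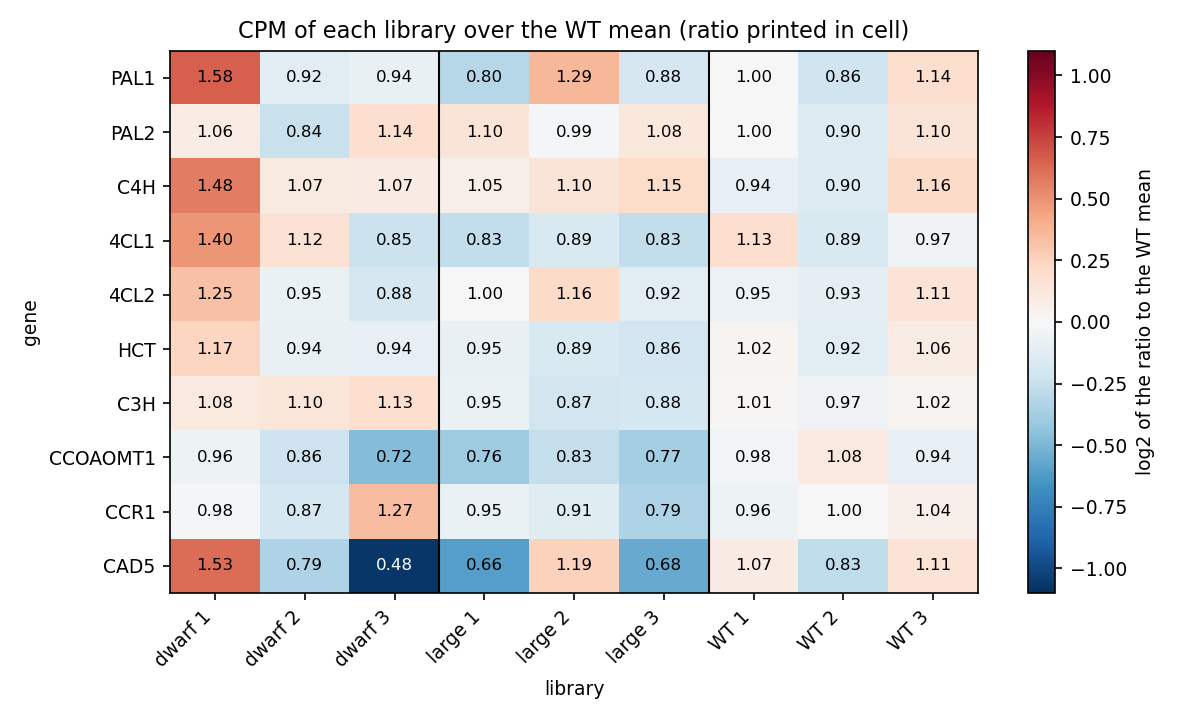
Ratio of each gene's CPM to its WT mean in every library, as a colour scale on log2 with genes in pathway order and the libraries ordered dwarf, large and WT. Dwarf 1 is raised in most genes, with PAL1 at 1.58 and CAD5 at 1.53, while C3H stays between 1.08 and 1.13 in dwarf and between 0.870 and 0.952 in large.

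The genes did not move as 1 block across libraries. Over the 45 pairs of the 10 genes, Pearson's r of log2 CPM over the 9 libraries had a median of 0.37 and ranged from -0.49 to 0.88; with group means removed the median was 0.45. These are descriptions of 9 libraries that share groups, depth and tissue. PAL1, 4CL2 and CAD5 were the most alike (r = 0.88 for PAL1 with 4CL2 and 0.85 for 4CL2 with CAD5), all 3 being high in dwarf 1 and large 2. Dwarf 1 and large 2 also had the highest r when whole libraries were compared in pairs (0.57). How far the likeness of the 3 genes follows from that was not tested. PAL2 and CCR1 followed the rest least, with r of -0.01 and 0.02 to the mean of the other 9 genes, against 0.88 for PAL1 and 0.86 for HCT. Of 6956 other genes with a symbol and a mean of at least 5 CPM, the mean profile of the 10 was most closely matched by MLO12 (r = 0.98), CYCT1;4 (0.94), RWA1 (0.94), LIP1 (0.93) and VPS35A (0.92). With group means removed the closest were JRG21 (0.99), ATG12A (0.99), SOT12 (0.98), MLO12 (0.98) and EFE (0.98). MLO12 is a gene of powdery mildew susceptibility and EFE makes ethylene. These are the highest of 6956 values over 9 libraries, so high r values come with the selection. The mean profile stood at 0.33 in dwarf 1 and between -0.16 and 0.12 in the other libraries. A link between these genes and the 10 was not tested.

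Levels between genes were compared per kilobase of exon, as CPM per kb. In WT the order was CCOAOMT1 (121), HCT (67.9), CCR1 (59.6), C4H (51.8), 4CL1 (36.8), PAL1 (31.3), CAD5 (29.5), PAL2 (27.2), C3H (24.8) and 4CL2 (4.72). CCOAOMT1 and HCT, HCT and CCR1, C4H and 4CL1, and C3H and 4CL2 were neighbours in this order whose WT libraries did not overlap, while the other neighbours overlapped. In dwarf and large plants the mean of C4H stood above that of CCR1, at 62.4 against 62.0 in dwarf and 56.9 against 52.7 in large, with overlapping libraries in both groups. The first 2 places and the last were the same in dwarf, large and WT.

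The enzymes, transporters and regulators around the 10 genes were counted from lists that, like the 10, were chosen with earlier results known. Over all genes tested edgeR called 6.54% higher and 2.22% lower in dwarf against WT, and 3.89% higher and 0.327% lower in large against WT. Of 19 other monolignol pathway genes tested, it called 1 higher and 1 lower in dwarf against WT, 1 higher in large against WT and none in dwarf against large, counts near those shares, with medians of 0.13, -0.07 and 0.21. In dwarf against WT 5 had an unadjusted p under 0.05, DESeq2 called 2 higher and 1 lower, and limma voom 3 higher and 1 lower. The counts in large against WT were 3 at such a p, while DESeq2 called 1 higher and 1 lower, and limma voom 2 higher and 3 lower. In dwarf against large 9 had an unadjusted p under 0.05, DESeq2 called 5 and limma voom 8, in both directions. Over all 19870 genes tested DESeq2 called 2061 higher and 1123 lower in dwarf against WT, and limma voom 3022 and 1604. The totals in large against WT were 1458 and 375 with DESeq2, and 2932 and 1260 with limma voom. Those in dwarf against large were 939 and 767, and 2143 and 1638. Counts by these tools in this and the following lists stand beside these totals. PAL3, another PAL isoform, had 27.3, 29.4 and 36.2 CPM in dwarf, 20.8, 18.4 and 15.2 CPM in large, and 15.2, 17.2 and 15.1 CPM in WT. All dwarf libraries lay above all others, and PAL3 rose in dwarf against WT at 0.97 ± 0.15 on the log2 scale (SE; adjusted p = 0.00850). That call held in 17 of 18 alternatives and was lost without WT 1 (adjusted p = 0.0513). PAL1 and PAL2 had log2 fold changes of 0.20 and 0.02 in the same comparison, and whether the isoforms differ in response was not tested. CAD7, also known as ELI3-1 and a defence-responsive relative of CAD5, fell in dwarf against WT (68.1, 38.05 and 51.2 CPM in dwarf, 89.4, 84.8 and 99.9 CPM in WT). Its log2 fold change was -0.80 ± 0.19 (adjusted p = 0.0361), and 9 of 18 alternatives kept the call; it was lost without dwarf 2, large 1, large 3 or any of the WT libraries (adjusted p 0.0519 to 0.109). CAD6 rose in large against WT (3.90, 3.15 and 3.22 CPM in large, 1.92, 1.73 and 2.28 CPM in WT), at 0.79 ± 0.17 (adjusted p = 0.0422), with 8 of 18 alternatives keeping the call; it was lost without dwarf 2 or any large or WT library (adjusted p 0.0549 to 0.175).

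**Figure D4:**
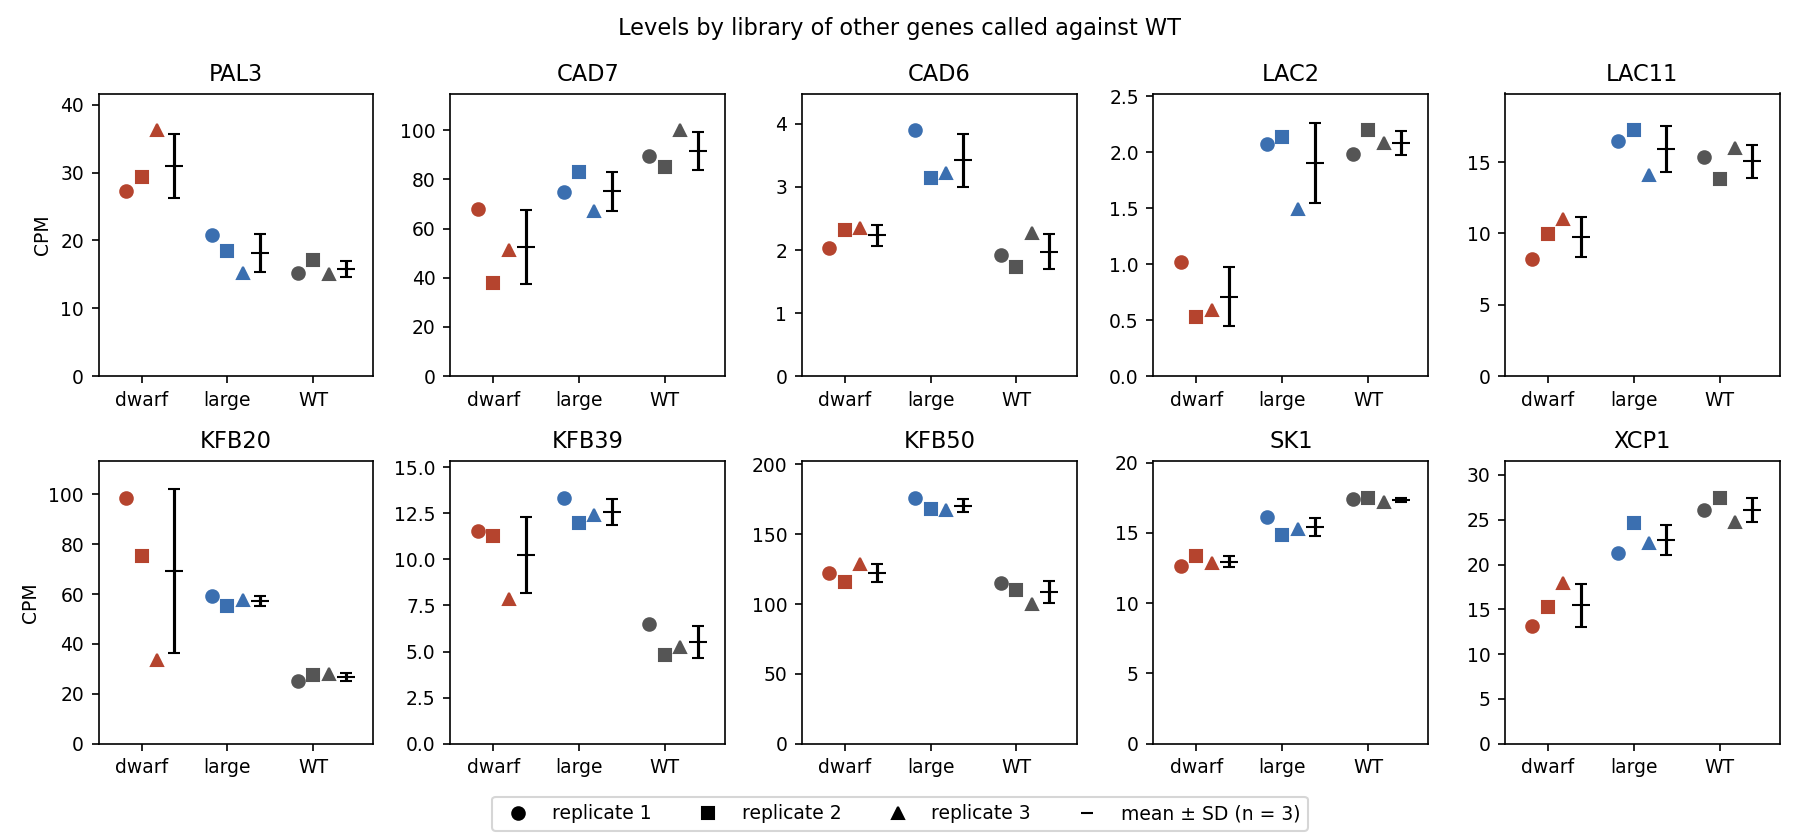
CPM in every library of 10 called genes outside the set (PAL3, CAD7, CAD6, LAC2, LAC11, KFB20, KFB39, KFB50, SK1 and XCP1), on a separate axis per gene, with dwarf, large and WT from left to right; bars give the mean and SD (n = 3). PAL3 lies between 27.3 and 36.2 CPM in dwarf, above all large and WT libraries, and LAC2 and XCP1 lie below all WT libraries in dwarf.

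Genes of monolignol transport and polymerization had mostly negative values in dwarf plants. Of 15 tested, edgeR called 2 lower and none higher in dwarf against WT. It called 2.22% of all genes tested lower there and 6.54% higher. Negative values were found for 11 of the 15, with a median of -0.55 against 0.05 over all genes tested. The other 4 were positive, among them the value farthest from 0, that of UGT72E2 (2.54, edgeR's adjusted p = 0.0687), and PRX71 (1.35, adjusted p = 0.0802). The whole list summed to 146 to 271 CPM in dwarf and 150 to 172 CPM in WT. In that comparison 8 had an unadjusted p under 0.05, DESeq2 called 2 higher and 5 lower, and limma voom 2 higher and 7 lower. In large against WT none was called by edgeR, DESeq2 or limma voom, 1 had an unadjusted p under 0.05, and the median was 0.08. Between dwarf and large edgeR called none, with a median of -0.53; 10 had an unadjusted p under 0.05, DESeq2 called 1 higher and 4 lower, and limma voom 3 higher and 6 lower. Both genes that edgeR called were laccases, the oxidases that couple monolignols in the wall. LAC2 had 1.02, 0.530 and 0.586 CPM in dwarf, 2.08, 2.14 and 1.49 CPM in large, and 1.98, 2.19 and 2.08 CPM in WT, a log2 difference of -1.54 ± 0.28 (SE) in dwarf against WT (adjusted p = 0.0152). LAC11, one of the main laccases of stem lignification, had 8.24, 9.98 and 11.02 CPM in dwarf, 16.5, 17.2 and 14.1 CPM in large, and 15.4, 13.8 and 16.0 CPM in WT, a log2 difference of -0.63 ± 0.13 (adjusted p = 0.0240). Each dwarf library lay below every other library for both. The LAC2 call was lost without WT 1 (adjusted p = 0.0597), without WT 2 (0.0640) and when only the dwarf and WT libraries were fitted (0.0506). The LAC11 call was lost without dwarf 2, WT 1, WT 2 or WT 3 (0.0566 to 0.0958). It was also lost in the fit of dwarf and WT alone (0.0646) and with the replicate number as a block (0.0515).

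The 15 secondary wall and xylem markers had 12 negative values in dwarf against WT, with a median of -0.29, and edgeR called 1, XCP1, a xylem cysteine protease. It had 13.1, 15.3 and 17.9 CPM in dwarf, 21.2, 24.6 and 22.5 CPM in large, and 26.1, 27.4 and 24.7 CPM in WT, and fell with a log2 fold change of -0.76 ± 0.12 (SE) in dwarf against WT (adjusted p = 0.00992). Without WT 1 or WT 2 its adjusted p was 0.0521 or 0.0526. Limma voom called 10 of the 15 lower in dwarf against WT and DESeq2 2. At an unadjusted p under 0.05 there were 6, XSP1 higher in dwarf (log2 fold change 0.33) and the others lower. Of all 19870 genes tested, limma voom called 1604 lower there, DESeq2 1123 and edgeR 441. In large against WT edgeR called none, with a median of 0.07. Only 1 had an unadjusted p under 0.05, XSP1, higher in large (log2 fold change 0.42). DESeq2 called 1 higher, and limma voom 2 higher and 1 lower. In dwarf against large edgeR called none, with a median of -0.43. At an unadjusted p under 0.05 there were 7, IRX10 higher in dwarf (log2 fold change 0.32) and the others lower. DESeq2 called 2 and limma voom 10, all lower in dwarf. The marker sum was low in dwarf 1 and dwarf 2 (161 and 153 CPM) and high in dwarf 3 (220 CPM), so the groups overlapped; its part in the laccase values was not tested.

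Of 20 tested regulators, edgeR called 2 higher in each comparison with WT, beside 6.54% of all genes tested in dwarf and 3.89% in large, and none lower. DESeq2 called 3 higher in each, limma voom 3 higher in dwarf and 6 in large, and neither called any lower. In dwarf against large edgeR called none (5 at an unadjusted p under 0.05, 1 by DESeq2, 5 by limma voom), and the medians of the 3 comparisons were 0.14, 0.29 and -0.19. Without dwarf 1 the median in dwarf against WT was -0.07. Those called by edgeR were all KFB genes, which encode Kelch-repeat F-box proteins known to target PAL enzymes for degradation. KFB39 rose in both (11.6, 11.3 and 7.84 CPM in dwarf, 13.3, 12.0 and 12.4 CPM in large, 6.48, 4.83 and 5.26 CPM in WT), with log2 fold changes of 0.89 ± 0.17 (SE) in dwarf (adjusted p = 0.0181) and 1.19 ± 0.17 in large (adjusted p = 0.0142). KFB50 rose in large against WT (176, 168 and 167 CPM in large, 115, 110.1 and 100.4 CPM in WT), at 0.65 ± 0.09 (adjusted p = 0.0113). KFB20 had 98.6, 75.3 and 33.8 CPM in dwarf, 59.2, 55.1 and 57.6 CPM in large, and 25.1, 27.5 and 28.0 CPM in WT, and rose in dwarf against WT at 1.37 ± 0.31 (adjusted p = 0.0307). For all 3 genes every dwarf and large library was above every WT library, and the value of KFB20 in large, 1.09, was not called (adjusted p = 0.0878). In dwarf 1 and dwarf 2 the neighbours of KFB20 stood 0.51 and 0.61 log2 above WT; with them as an offset its value was 0.94 (adjusted p = 0.0396). Annotated genes overlap nearly the whole of KFB39 and KFB50, and how reads in the shared stretches were assigned is not given. The KFB39 call in dwarf was lost without dwarf 2, WT 2 or WT 3 (adjusted p 0.0522 to 0.0806), and that in large without large 1, large 3, WT 1 or WT 2 (0.0589 to 0.0896). The KFB50 call was lost without large 1, WT 1 or WT 2 (0.0669 to 0.0732), and the KFB20 call without dwarf 1, dwarf 2, large 1, large 3 or any WT library (0.0514 to 0.119). None of the MYB and NAC regulators tested was called by edgeR in any comparison. The NAC genes tested were VND6 and VND7. SND1, NST1, NST2, MYB42, MYB61 and MYB103 did not pass the filter on low counts and were not tested.

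The branches that share p-coumaroyl-CoA or supply phenylalanine gave few calls by edgeR. Of 7 flavonoid genes all were positive in large against WT, with a median of 0.56. There edgeR and DESeq2 each called 1 higher and limma voom 5, and 3 had an unadjusted p under 0.05. The gene called by edgeR was F3H, flavanone 3-hydroxylase. F3H had 15.5, 14.0 and 15.8 CPM in large and 10.4, 9.48 and 10.9 CPM in WT, 0.56 ± 0.12 (SE) higher on the log2 scale (adjusted p = 0.0353), which was lost without any 1 of the large or WT libraries (0.0652 to 0.157). An overlapping locus covers 94.5% of the gene from start to end, introns included. In dwarf against WT edgeR and DESeq2 called none of the 7 (median 0.07, none at an unadjusted p under 0.05) and limma voom 1. Between dwarf and large all 7 were negative (higher in large) and edgeR called none (median -0.47), with 5 at an unadjusted p under 0.05, 2 called by DESeq2 and 5 by limma voom. Among 8 genes of the sinapate ester and coumarin branches, UGT84A2, which makes sinapoyl glucose, rose in dwarf against WT (80.2, 72.0 and 45.2 CPM in dwarf, 38.3, 38.9 and 41.7 CPM in WT) at 0.73 ± 0.19 (adjusted p = 0.0495), and 4 of 18 alternatives kept the call, which was lost without each library but dwarf 3 (0.0677 to 0.161). In that comparison 3 of the 8 had an unadjusted p under 0.05, DESeq2 called 1 higher, and limma voom 1 higher and 2 lower. The list's medians were 0.54, 0.04 and 0.13 in the 3 comparisons, and without dwarf 1 the first was 0.15. edgeR called none in large against WT (1 at an unadjusted p under 0.05, 0 by DESeq2, 2 by limma voom) or in dwarf against large (3, 2 and 4). Among 20 genes of shikimate and phenylalanine supply the shikimate kinase SK1 fell in dwarf against WT (12.6, 13.4 and 12.8 CPM in dwarf, 17.4, 17.5 and 17.2 CPM in WT) at -0.42 ± 0.08 (adjusted p = 0.0152), kept in 15 of 18 alternatives and lost without WT 1 (0.0725), without WT 2 (0.0661) and in the fit of dwarf and WT alone (0.0564). In that comparison 3 of the 20 had an unadjusted p under 0.05, and DESeq2 and limma voom each called 2, all lower. The medians of this list were -0.04, -0.05 and 0.02, and edgeR called none in large against WT (3 at an unadjusted p under 0.05, 1 by DESeq2, 3 by limma voom) or in dwarf against large (2, 1 and 2).

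**Figure D5:**
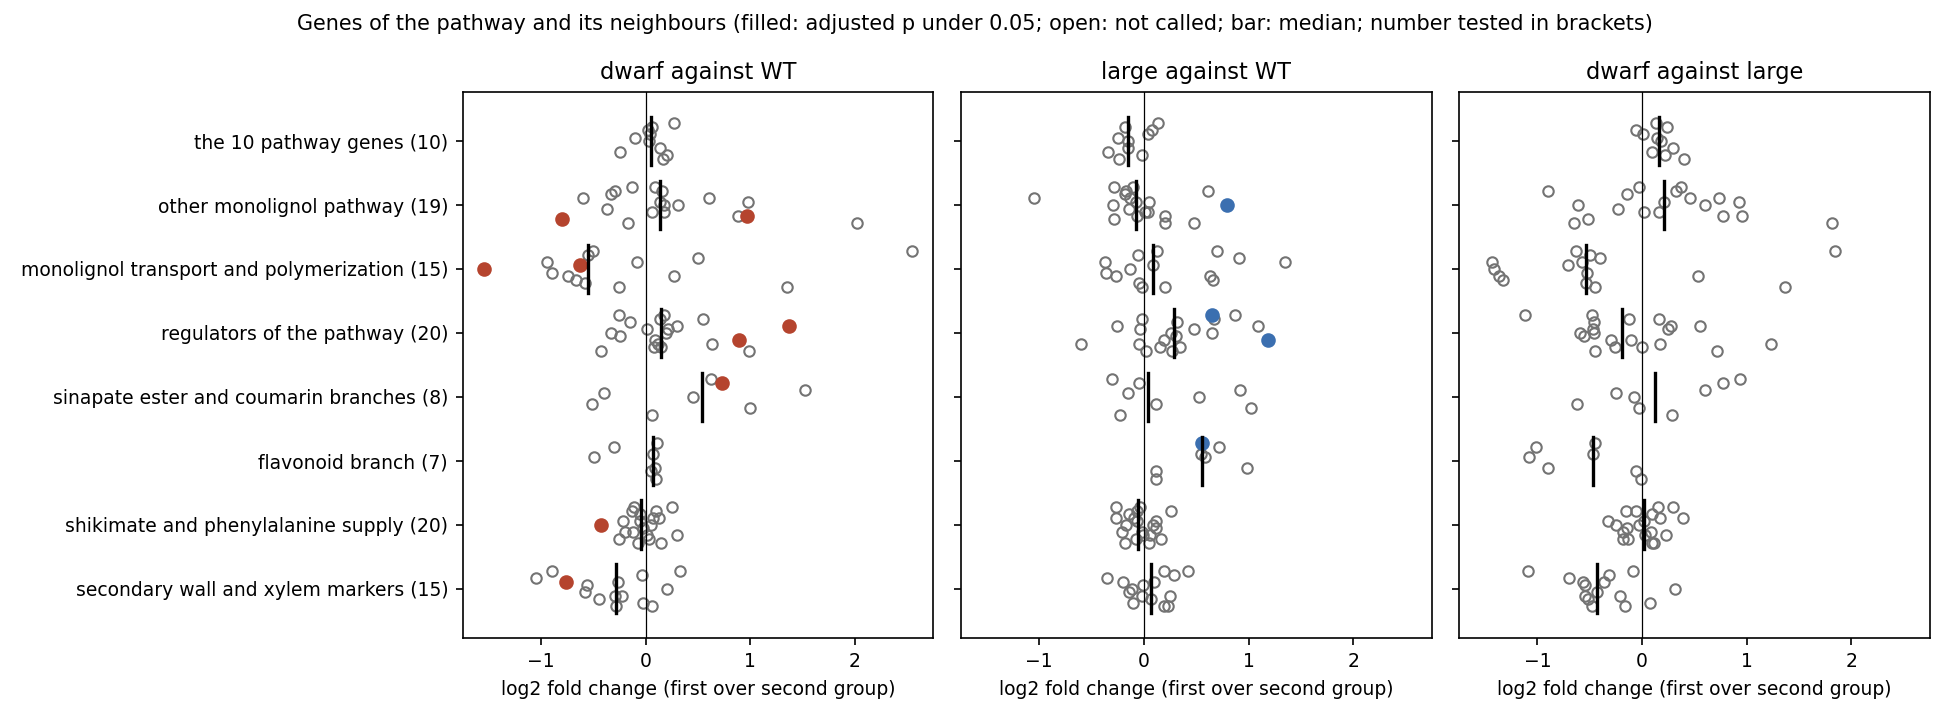
Log2 fold changes of all tested genes of each list in the 3 comparisons, with the list's median and filled points for called genes. The 10 pathway genes lie between -0.24 and 0.27 in dwarf against WT and between -0.34 and 0.14 in large against WT. In dwarf against large they lie between -0.06 and 0.40. The transport and polymerization list sits at a median of -0.55 in dwarf against WT and the flavonoid list at 0.56 in large against WT.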

How the data were processed

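RNA of aboveground tissue at bolting was sequenced in 9 libraries, 3 per group, as paired reads of 100 bp from TruSeq libraries, per the labels' protocols. What the authors deposited are raw read counts, 1 whole number per gene and library. The submitters' processing notes name STAR 2.7.0a, Trim Galore 0.4.1 and, as build, TAIR10; which program counted the reads, with what annotation and strand option, was not given in the sources used here. The 5 lines that name no gene were left out of the library totals; reads outside genes came to 0.642 to 0.900% and ambiguous reads to 0.228 to 0.309%. Depth was 34660392 to 35217754 counts; intervals rest on the replicate spread.

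With R 4.3.3 and edgeR 4.0.16, counts were filtered by filterByExpr, scaled by TMM factors (0.935 to 1.05) and tested by the quasi-likelihood test in 1 fit of all libraries and 3 groups, with Benjamini-Hochberg adjustment over 19870 genes and a threshold of 0.05. DESeq2 1.42.0 and limma 3.58.1 (voom), other factors and filters, a replicate block, leaving out each library and an offset from 50 tested genes on each side were the alternatives. Log2 CPM used a prior count of 2. Positions, exon lengths, overlaps and promoters came from the TAIR10.1 RefSeq annotation. Besides the 10 genes, up to 3 called genes per list and comparison with the smallest p are named, with PPD3 and the 5 genes most alike in profile. The 10 genes and the lists were chosen with earlier results of these data known. The fit was tested on simulated data.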

Additional observations from a re-analysis of the deposited data

Results flagged for a closer look

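C3H, the hydroxylase of the shikimate ester, was marked because all 3 dwarf libraries (50.4, 51.2 and 53.1 CPM) lay above WT (47.1, 45.5 and 47.7 CPM) and all 3 large libraries (44.5, 40.7 and 40.9 CPM) below it. The difference between the dwarf and large effects is the dwarf against large value itself, a log2 fold change of 0.29, since both effects share the WT libraries. edgeR gave it an adjusted p of 0.0844, so it was not called. It stayed positive in all 18 alternatives, of which 3 called it.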

How the results depend on the processing

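Of the counts of the 10 genes called, that of dwarf against WT was 0 in every alternative. In large against WT it was 0, but 1 with DESeq2, 1 with limma voom and 1 with only the 2 groups fitted, and between 0 and 1 when a library was left out. In dwarf against large it was 0, but 1 with DESeq2 and 2 with limma voom, and between 0 and 2 when a library was left out (2 without dwarf 3).

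Directions changed for small values; the cause was not tested. With upper-quartile factors the log2 fold changes in dwarf against WT were -0.042 for PPD3, -0.055 for PAL2, -0.035 for 4CL2, -0.048 for HCT and -0.016 for CCR1, and in dwarf against large -0.058 for 4CL2. Without a filter they were -0.0030 for PPD3, -0.012 for PAL2 and -0.0057 for HCT, and -0.013 for 4CL2 in dwarf against large. Limma voom gave -0.14 for PAL2, -0.027 for HCT and -0.11 for CCR1, and -0.019 for 4CL2 in dwarf against large. The neighbour offset gave -0.30 for PPD3 and -0.16 for CCR1 in dwarf against WT, and -0.13 for PPD3 and -0.012 for 4CL2 in dwarf against large. With only the 2 groups fitted PAL2 was -0.0058 in dwarf against WT and 4CL2 -0.0013 in dwarf against large.

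When each library was left out, the dwarf against WT values ran between -0.099 and 0.33 for PAL1, -0.073 and 0.14 for PAL2, -0.025 and 0.33 for 4CL1, -0.12 and 0.14 for 4CL2, -0.087 and 0.082 for HCT, -0.11 and 0.17 for CCR1, -0.66 and 0.21 for CAD5, and -0.15 and 0.14 for PPD3. In large against WT they ran between -0.25 and 0.095 for PAL1 and between -0.056 and 0.12 for 4CL2. In dwarf against large they ran between -0.083 and 0.45 for PAL1, -0.15 and 0.055 for PAL2, -0.039 and 0.21 for C4H, -0.16 and 0.10 for 4CL2, -0.0031 and 0.20 for CCOAOMT1, and -0.41 and 0.48 for CAD5.

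The replicate numbers did not pair the libraries: of 9 same-numbered pairs, 1 correlated above 0.1 (r between -0.24 and 0.43), and 4 of 9 libraries were most alike to one of their own number. The highest r of any pair was 0.57, for dwarf 1 with large 2. With the replicate block 0 of the 10 genes were called in each comparison and 4CL2 was -0.0028 in dwarf against large. Among the other genes named, the block left CAD7 (adjusted p = 0.0533), LAC11 (0.0515), KFB20 (0.0569) and UGT84A2 (0.0915) uncalled in dwarf against WT and CAD6 (0.0775) in large against WT. Over all genes it called 1263, 618 and 0, against 1740, 838 and 129 without it. DESeq2 called 3184, 1833 and 1706 genes and limma voom 4626, 4192 and 3781; the neighbour offset called 798, 300 and 120, and the fits of 2 groups alone 467, 2205 and 0. Leaving out a library gave 266 to 4477, 9 to 1599 and 0 to 3236. Upper-quartile factors moved the split in dwarf against WT to 1050 higher and 762 lower, against 1299 and 441 with TMM factors, and in dwarf against large to 54 and 130, against 54 and 75. The least abundant of the 10 genes, 4CL2, had 283 to 452 counts per library; whether depth or the spread between libraries limits the calls was not tested.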
